A study of Homo sapiens with 6 samples.

Results

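The genes described here are the BCL2 family, the caspases and other regulators of cell death, 41 listed symbols of the 58884 genes in the count matrix. They were chosen by symbol, and each matched 1 row. They were read in 6 libraries of SW480 cells, a long-established line from a human colorectal cancer, which had formed liver metastases in immunodeficient NSG mice. In 3 libraries the cells carried a guide RNA against ITPR3 (sgITPR3), the gene of the type 3 inositol trisphosphate receptor, and in 3 a control guide (sgCtrl). Cells of both groups were injected into the portal circulation, recovered by digestion of the liver, a density gradient and depletion of mouse cells, and their polyadenylated RNA was read as 3' tags. Not given in the sources used here were the time of growth, the number of animals per library, the guide sequence and whether the cells were clones or pools.

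BCL2 proteins decide whether the outer mitochondrial membrane stays closed. Pro-survival members hold the pore formers BAX and BAK1 in check, and the BH3-only proteins, which share one short helix with the rest of the family, release that block. Once the membrane opens, cytochrome c binds APAF1 and activates caspase 9, whereas death receptors activate caspase 8 through the adaptor FADD. Gasdermins and MLKL instead open pores in the plasma membrane. Several BCL2 proteins also sit on the endoplasmic reticulum, where BCL2, BCL-XL and BOK are known to bind inositol trisphosphate receptors.

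Of the 41 genes, 34 passed the low-count filter and were tested. With sgITPR3, 14 were lower and 2 were higher at an adjusted p under 0.05 (edgeR quasi-likelihood test, Benjamini-Hochberg over all genes tested), and 18 did not pass. Over the whole table the same rule called 23.5% of 15804 genes, 11.9% lower and 11.6% higher, against 41.2% lower and 5.88% higher among the tested members. The median log2 fold change of the tested members was -0.17, against 0.000859 over all tested genes. The members that fell included genes of pro-survival proteins (BCL2L1, BCL2L2 and MCL1) as well as genes of proteins that promote death (BIK, BID, BCL2L11, BBC3 and BAX). The 2 that rose were the caspase genes CASP4 and CASP8. Groups did not overlap for 18 of the 34 tested members, 14 lower and 4 higher in sgITPR3, against 39.3% of all tested genes, 19.7% lower and 19.6% higher. The number of falls was 9 without sgITPR3 replicate 2 and also 9 with the level of ALB, a hepatocyte transcript, as a covariate. With that covariate 1 member rose in place of 2, and without sgCtrl replicate 2 there were 4 that rose, RIPK3 and GSDMB being added to CASP4 and CASP8. The whole table moved as well, from 3717 genes called to 2331 without sgITPR3 replicate 2 and 2007 with the covariate. Without sgCtrl replicate 2 it had 4261 genes called.

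**Figure D1:**
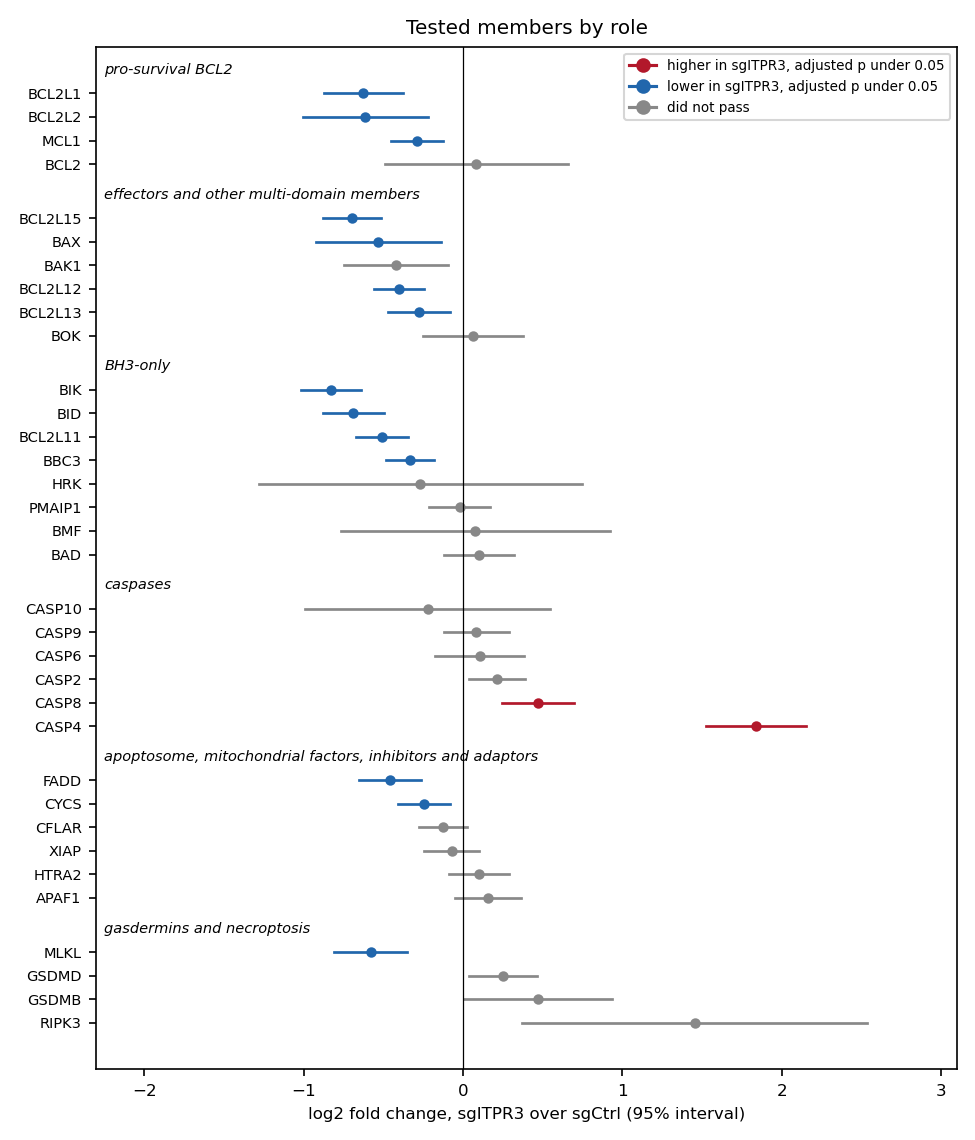
Log2 fold change of sgITPR3 over sgCtrl with its 95% interval for the 34 tested members, grouped by role, from the edgeR fit over 6 libraries. Blue and red mark the members that passed as lower and higher, grey those that did not pass. Falls that passed lie in each role group but the caspases. The largest rises are those of CASP4, at 1.84, and of RIPK3, which did not pass, at 1.45.

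Totals were between 19140055 and 23943797 counts per library. The targeted gene ITPR3 was at 39.4, 41.0 and 46.2 CPM in the sgITPR3 libraries, against 108, 93.9 and 94.2 CPM in the sgCtrl libraries (log2 fold change -1.22 with SE 0.0831, edgeR adjusted p = 1.28e-07), and a 3' tag can lie outside an edited site. The 12 markers of colorectal epithelium summed to 2125 to 2177 CPM in sgITPR3 and 2512 to 2907 CPM in sgCtrl, with 2 of 8 tested higher and 3 lower, while KRT20, CDX1 and CEACAM5 were among those too low to test. The summed level of 16 hepatocyte markers was 173 to 332 CPM in sgITPR3 and 71.0 to 275 CPM in sgCtrl, with 2 of 11 tested higher and 1 lower. The lower one, SERPINA1, was at 16.4, 12.4 and 12.9 CPM in the sgITPR3 libraries, against 45.3, 45.8 and 38.9 CPM in the sgCtrl libraries (log2 fold change -1.64 with SE 0.113, edgeR adjusted p = 1.51e-07). ALB, which was used as the covariate, was at 232, 153 and 111 CPM in the sgITPR3 libraries, against 33.8, 169.7 and 21.6 CPM in the sgCtrl libraries and did not pass (log2 fold change 1.14 with SE 0.508, edgeR adjusted p = 0.123), with sgCtrl replicate 2 within the sgITPR3 range. Of the erythroid markers, HBA2 was higher, and HBA1, which reached the low-count limit in no sgCtrl library and so passed the filter through the sgITPR3 libraries, was also called higher (summed level of the list 4.84 to 6.39 CPM in sgITPR3 and 0.587 to 1.34 CPM in sgCtrl). Of 8 leukocyte markers only S100A9 could be tested, and it was lower (summed level 4.49 to 8.33 CPM in sgITPR3 and 10.6 to 16.1 CPM in sgCtrl), with ELANE at 0. The 8 fibroblast markers summed to 21.3 to 24.1 CPM in sgITPR3 and 19.2 to 20.4 CPM in sgCtrl, with 1 of 3 tested higher and LUM at 0. The 11 macrophage markers summed to 1.19 to 1.38 CPM in sgITPR3 and 0.374 to 1.29 CPM in sgCtrl, with C1QA, C1QB and C1QC at 0. The 8 endothelial markers summed to 0.283 to 0.722 CPM in sgITPR3 and 0.497 to 0.861 CPM in sgCtrl, with CLEC4G and EMCN at 0. All these markers were read from rows of human genes, whereas the host cells were mouse. Tags in these rows from SW480 cells and from mouse reads cannot be told apart here. The sums and the counts of 0 therefore do not measure how many host cells were present. The part of these cells in the results below was not tested beyond the ALB covariate. In bulk libraries fewer cells of a type and less RNA per cell cannot be told apart, and since no label ties a library to 1 animal, the p-values cover the spread between these samples alone, which may be technical.

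Of the members that passed the test, 4 are shown by the bases before a transcription start in RefSeq (GRCh38.p14), chosen after their values were seen because they differ in direction and in the make-up of their starts. Each stretch holds up to 150 bases before 1 start and stops before the first base in an annotated exon of GENCODE 29. The stretches of CASP8 and BCL2L1 therefore lack the bases nearest the RefSeq start. Each stretch runs 5′ to 3′ on the strand of the gene, and capitals mark the GC box GGGCGG and the TATA box TATAAA on either strand, which cannot overlap each other.
CASP8: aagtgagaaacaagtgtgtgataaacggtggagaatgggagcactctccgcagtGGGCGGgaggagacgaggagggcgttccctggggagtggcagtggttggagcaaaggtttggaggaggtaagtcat
BCL2L1: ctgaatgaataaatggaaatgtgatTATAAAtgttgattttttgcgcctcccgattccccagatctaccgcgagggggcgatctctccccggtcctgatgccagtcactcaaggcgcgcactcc
BCL2L11: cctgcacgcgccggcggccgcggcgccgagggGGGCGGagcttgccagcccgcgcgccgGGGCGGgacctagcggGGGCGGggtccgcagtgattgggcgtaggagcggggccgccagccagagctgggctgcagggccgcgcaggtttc
BCL2L15: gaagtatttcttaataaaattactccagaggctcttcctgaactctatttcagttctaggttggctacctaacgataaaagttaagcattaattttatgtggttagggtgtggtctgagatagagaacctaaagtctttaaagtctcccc
The positions are chr2:201233313-201233442, plus strand, for CASP8, which rose, and chr20:31723990-31724113, minus strand, for BCL2L1, which fell. They are chr2:111120764-111120913, plus strand, for BCL2L11 and chr1:113887582-113887731, minus strand, for BCL2L15, both of which fell. The BCL2L11 stretch holds 3 GC boxes and 22 CG dinucleotides in 150 bases, and the BCL2L15 stretch, of the same length, holds neither motif and 1 CG dinucleotide. CASP8 has 1 GC box in 130 bases and BCL2L1 has 1 TATA box in 124 bases. The match in BCL2L1 lies near the 5′ end of its stretch, which is the end away from the start. These are matches of sequence alone, and whether any of them acts in transcription was not tested. Among 35116 stretches of 150 bases before a start, not cut at exons, 36.8% hold a GC box and 6.71% a TATA box. The median number of CG dinucleotides is 7. Over the 55 stretches of the members, also not cut, 29 hold a GC box and 3 a TATA box, with a median of 10 CG dinucleotides. In the windows of 300 bases around starts, which were on hand for 31 of the 41 members (55 windows), the AP-1 element TGANTCA was found in 6, an interferon regulatory factor element in 4 and the kappa B motif in 2, on either strand. These motifs occur in 7.71%, 3.57% and 5.91% of all 35116 windows. The AP-1 element lies near starts of CASP8, which rose, of BBC3, BCL2L13 and FADD, which fell, and of CFLAR, which did not pass. The kappa B motif lies near starts of CFLAR and BMF, neither of which passed.

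Among the pro-survival genes, 3 of 4 tested members fell, with a median log2 fold change of -0.45. BCL2L1 (chromosome 20, 31664452 to 31723989 of GRCh38, here and below from GENCODE 29) encodes BCL-XL, the main pro-survival protein of many epithelial tumours. It was at 52.8, 45.0 and 56.9 CPM in the sgITPR3 libraries, against 92.4, 64.6 and 81.5 CPM in the sgCtrl libraries, a 1.54-fold reduction (log2 fold change -0.63 with SE 0.116, edgeR adjusted p = 0.00134). Groups did not overlap for BCL2L1, although sgCtrl replicate 2 was the lowest of its group. With the ALB covariate BCL2L1 still passed, at a log2 fold change of -0.39 (edgeR adjusted p = 0.0385). BCL2L1 shares 43.0% of its exon bases with an antisense gene, ABALON, which held 43 counts over the 6 libraries. MCL1, whose protein turns over within hours, was at 289, 320.1 and 345 CPM in the sgITPR3 libraries, against 415, 374 and 377 CPM in the sgCtrl libraries (log2 fold change -0.29 with SE 0.0764, edgeR adjusted p = 0.0133). The sgITPR3 libraries of MCL1 lay below its sgCtrl libraries, but the call ended without sgITPR3 replicate 1 (adjusted p = 0.0832), without sgITPR3 replicate 2 (0.0515) and with ALB as a covariate (0.134). BCL2L2, encoding BCL-w, was at 9.41, 6.68 and 5.62 CPM in the sgITPR3 libraries, against 12.3, 11.8 and 9.13 CPM in the sgCtrl libraries (log2 fold change -0.61 with SE 0.183, edgeR adjusted p = 0.0256). Here sgITPR3 replicate 1 lay above sgCtrl replicate 3, and the call ended without sgITPR3 replicate 2 (adjusted p = 0.0949), without sgITPR3 replicate 3 (0.100) and without sgCtrl replicate 1 (0.0873). BCL2L2 shares 19.4% of its exon bases with a same-strand gene model, BCL2L2-PABPN1, which held 0 counts, so the level of BCL2L2 is uncertain. BCL2, the founding member of the family, was at 2.59, 2.23 and 3.04 CPM in sgITPR3 and 1.94, 2.09 and 3.36 CPM in sgCtrl and did not pass (log2 fold change 0.08, 95% interval -0.49 to 0.66, edgeR adjusted p = 0.857). BCL2A1 held 8, 12 and 4 counts in sgITPR3 and 4, 10 and 8 counts in sgCtrl, and BCL2L10 held 0, 7 and 2 counts in sgITPR3 and 11, 4 and 1 counts in sgCtrl, too few to test. The summed level of the 6 pro-survival genes, to which MCL1 gave most tags, was 380.0 ± 28.5 in sgITPR3 and 483 ± 36.1 in sgCtrl (CPM, SD, n = 3 each), with no overlap.

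Of the pore formers and the other multi-domain relatives, 4 of 6 tested members fell (BAX, BCL2L12, BCL2L13 and BCL2L15) and 2 did not pass (BAK1 and BOK), with a median of -0.41. BAX, which opens the outer mitochondrial membrane, was at 8.42, 6.11 and 7.63 CPM in the sgITPR3 libraries, against 11.2, 7.81 and 13.0 CPM in the sgCtrl libraries (log2 fold change -0.53 with SE 0.183, edgeR adjusted p = 0.0494). The groups overlapped, and the call ended in 8 of 13 other settings, among them ALB as a covariate (log2 fold change -0.17, adjusted p = 0.677) and leaving out any single library but sgCtrl replicate 2. BAK1, its partner in pore formation (chromosome 6, 33572547 to 33580293), did not pass, although its libraries did not overlap at 6.52, 5.14 and 6.55 CPM in sgITPR3 and 8.07, 7.91 and 8.33 CPM in sgCtrl (log2 fold change -0.42, 95% interval -0.74 to -0.09, edgeR adjusted p = 0.0595). BAK1 lies on the minus strand, and 40072 bases separate its start from the nearer boundary of the targeted gene ITPR3. BOK, a relative found mainly on the endoplasmic reticulum and Golgi, was at 7.95, 7.61 and 10.1 CPM in sgITPR3 and 8.44, 7.66 and 8.33 CPM in sgCtrl (log2 fold change 0.06, 95% interval -0.25 to 0.38, edgeR adjusted p = 0.799). The interval for BOK lies on both sides of 0, and the groups overlapped. The smallest p among these relatives was that of BCL2L15 (chromosome 1, 113878168 to 113887547), a relative known from the gastrointestinal tract, which was at 40.1, 41.4 and 39.0 CPM in the sgITPR3 libraries, against 63.5, 59.1 and 72.8 CPM in the sgCtrl libraries (log2 fold change -0.70 with SE 0.0843, edgeR adjusted p = 3.69e-05). BCL2L12, a proline-rich relative, was at 45.4, 46.2 and 49.7 CPM in the sgITPR3 libraries, against 59.1, 63.2 and 64.1 CPM in the sgCtrl libraries (log2 fold change -0.40 with SE 0.0733, edgeR adjusted p = 0.00122). Of its annotated exon bases, 33.1% are shared with IRF3 on the opposite strand, with the strand setting of the counting not given in the sources used here. BCL2L13, a mitochondrial protein that also acts in the removal of mitochondria, was at 39.8, 42.4 and 41.4 CPM in the sgITPR3 libraries, against 45.4, 47.2 and 57.2 CPM in the sgCtrl libraries (log2 fold change -0.28 with SE 0.0909, edgeR adjusted p = 0.0394). Its groups did not overlap, but the call ended without any one of the sgITPR3 libraries (adjusted p = 0.0818 to 0.131), without sgCtrl replicate 3 (0.184) and with ALB as a covariate (0.374). BCL2L14 held 0, 0 and 0 counts in sgITPR3 and 0, 3 and 1 counts in sgCtrl and was not tested. The 7 genes summed to 150.5 ± 3.36 in sgITPR3 and 204 ± 17.0 in sgCtrl (CPM, SD, n = 3 each), with no overlap. Most of these tags came from BCL2L12, BCL2L13 and BCL2L15, and few from BAX, BAK1 and BOK.

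All 8 BH3-only genes were tested. Of these, 4 fell and the other 4 did not pass, with a median of -0.30. BIK (chromosome 22, 43110748 to 43129712), whose protein is anchored in the endoplasmic reticulum membrane, had the largest fall of all tested members. It was at 23.1, 22.5 and 26.2 CPM in the sgITPR3 libraries, against 41.6, 40.6 and 44.9 CPM in the sgCtrl libraries, a 1.77-fold reduction (log2 fold change -0.83 with SE 0.0883, edgeR adjusted p = 1.25e-05). BID, which caspase 8 cuts to link death receptors to mitochondria (chromosome 22, 17734138 to 17774770), was at 43.3, 40.6 and 44.5 CPM in the sgITPR3 libraries, against 77.4, 60.3 and 69.0 CPM in the sgCtrl libraries (log2 fold change -0.69 with SE 0.0898, edgeR adjusted p = 7.44e-05). BCL2L11, encoding BIM, was at 31.1, 29.5 and 30.5 CPM in the sgITPR3 libraries, against 42.0, 43.0 and 44.5 CPM in the sgCtrl libraries (log2 fold change -0.51 with SE 0.0770, edgeR adjusted p = 2.77e-04). Within each group BCL2L11 varied little, and the lowest sgCtrl library lay well above the highest sgITPR3 library. BCL2L11 shares 10.9% of its exon bases with MIR4435-2HG on the opposite strand. BBC3, encoding PUMA, was at 58.0, 53.5 and 57.3 CPM in the sgITPR3 libraries, against 68.8, 70.9 and 72.7 CPM in the sgCtrl libraries (log2 fold change -0.33 with SE 0.0693, edgeR adjusted p = 0.00316). These 4 calls held in each of the 13 other settings. PMAIP1, encoding NOXA, the partner of MCL1, was at 39.1, 40.7 and 41.3 CPM in sgITPR3 and 41.9, 36.1 and 44.9 CPM in sgCtrl and did not pass (log2 fold change -0.02, 95% interval -0.21 to 0.17, edgeR adjusted p = 0.896). The groups of PMAIP1 overlapped. BAD, which growth factor signals hold inactive by phosphorylation, was at 18.5, 18.7 and 17.2 CPM in sgITPR3 and 18.3, 15.4 and 17.1 CPM in sgCtrl (log2 fold change 0.10, 95% interval -0.12 to 0.32, edgeR adjusted p = 0.525), with overlapping groups and 23.7% of its exon bases shared with GPR137 on the opposite strand. HRK and BMF were near the limit of detection, at 0.374 to 1.02 CPM over the 6 libraries, and their intervals reached from -1.28 to 0.75 for HRK and from -0.77 to 0.92 for BMF. The BH3-only genes summed to 213 ± 5.87 in sgITPR3 and 284 ± 14.7 in sgCtrl (CPM, SD, n = 3 each), with no overlap.

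BIK and BCL2L1 stand on opposite sides of the decision to die, and both fell. The ratio of BCL2L1 to BIK tags was 2.29, 1.99 and 2.17 in the sgITPR3 libraries, against 2.22, 1.59 and 1.81 in the sgCtrl libraries. The groups overlapped, at 2.15 ± 0.148 in sgITPR3 and 1.88 ± 0.319 in sgCtrl (SD, n = 3 each), so the 2 transcripts were lower with a ratio whose difference was smaller than the spread between sgCtrl libraries. No test was made of this ratio or of the summed levels, since the members were chosen with results known.

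**Figure D2:**
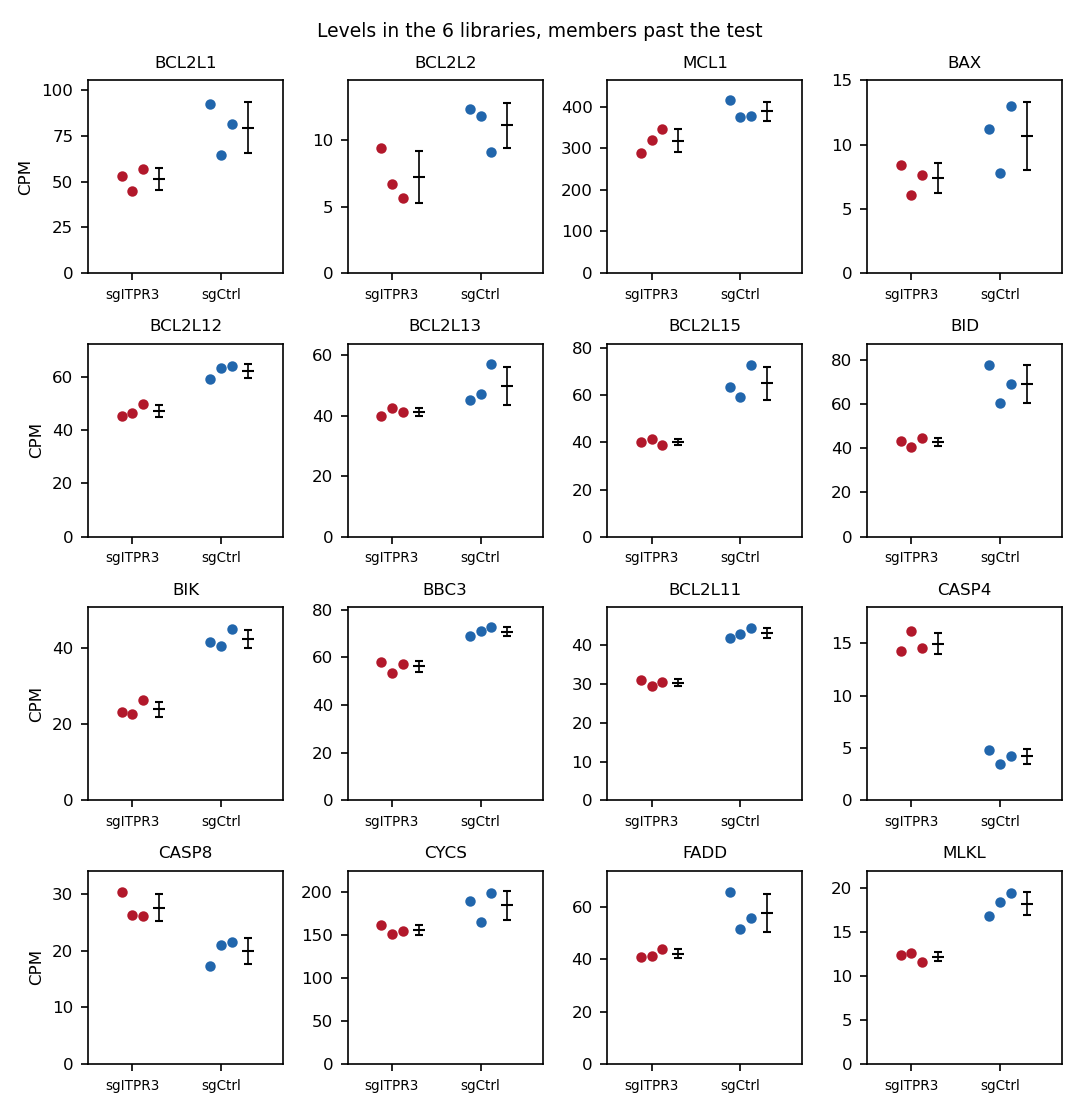
CPM of the 16 members that passed the test, 1 panel per gene with an axis from 0, each dot a library and the black mark the mean with its SD (n = 3 per group). The sgITPR3 libraries lie below the sgCtrl libraries for 12 of the 14 genes that fell, BCL2L2 and BAX being the exceptions, and above them for CASP4 and CASP8.

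Of 6 tested caspases, 2 rose (CASP4 and CASP8) and 4 did not pass, with a median of 0.16. CASP4 (chromosome 11, 104942866 to 104969436), which senses bacterial lipopolysaccharide in the cytosol and cuts gasdermin D, was at 14.3, 16.1 and 14.5 CPM in the sgITPR3 libraries, against 4.84, 3.48 and 4.27 CPM in the sgCtrl libraries. That is 3.57-fold higher in sgITPR3 (log2 fold change 1.84 with SE 0.147, edgeR adjusted p = 6.63e-07), and CASP4 ranked 243 of 15804 tested genes by log2 fold change. Each sgITPR3 library lay above each sgCtrl library, and the log2 fold change lay between 1.71 and 2.03 in the 13 other settings. Close relatives share parts of the CASP4 sequence, so its counts depend on how multiply mapped reads were treated. CASP1, the caspase of the classical inflammasome, held 0, 2 and 1 counts in sgITPR3 and 2, 0 and 0 counts in sgCtrl. CASP8, the initiator at death receptors (chromosome 2, 201233443 to 201287711), was at 30.4, 26.4 and 26.1 CPM in the sgITPR3 libraries, against 17.3, 21.0 and 21.6 CPM in the sgCtrl libraries (log2 fold change 0.47 with SE 0.106, edgeR adjusted p = 0.00537). The groups did not overlap, and with the ALB covariate CASP8 did not pass (log2 fold change 0.40, adjusted p = 0.0729). CASP10 and CFLAR lie beside CASP8 on chromosome 2, CFLAR from 201116104 and CASP10 from 201182881. CASP10, a second initiator, was at 0.777, 1.01 and 0.979 CPM in sgITPR3 and 0.807, 1.29 and 1.12 CPM in sgCtrl (log2 fold change -0.22, 95% interval -0.99 to 0.55, edgeR adjusted p = 0.705). CFLAR, which encodes the caspase 8 inhibitor c-FLIP, was at 60.3, 56.9 and 54.7 CPM in sgITPR3 and 61.2, 65.1 and 61.3 CPM in sgCtrl, without overlap but also without passing (log2 fold change -0.12, 95% interval -0.28 to 0.03, edgeR adjusted p = 0.230). The 3 neighbours therefore did not move together past the test.

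Of the remaining caspases, CASP2, an initiator linked to DNA damage and ploidy, was at 70.0, 65.4 and 79.4 CPM in sgITPR3 and 60.2, 59.0 and 65.9 CPM in sgCtrl (log2 fold change 0.21, 95% interval 0.04 to 0.39, edgeR adjusted p = 0.0753). CASP9, the caspase of the apoptosome, was at 21.1, 20.3 and 18.7 CPM in sgITPR3 and 19.5, 18.6 and 18.5 CPM in sgCtrl (log2 fold change 0.08, 95% interval -0.12 to 0.29, edgeR adjusted p = 0.571). Both overlapped between the groups. CASP6, an effector caspase, averaged 13.6 ± 2.10 CPM in sgITPR3 and 12.7 ± 0.965 CPM in sgCtrl (SD, n = 3 each; edgeR adjusted p = 0.608). The summed level of the 7 caspase genes was 149 ± 3.26 in sgITPR3 and 118 ± 4.06 in sgCtrl (CPM, SD, n = 3 each) and did not overlap.

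Among apoptosome components, mitochondrial factors, inhibitors and adaptors, 2 of 6 tested members fell and 4 did not pass, with a median of -0.097. FADD, which joins death receptors to caspase 8 (chromosome 11, 70203163 to 70207390), was at 40.8, 41.3 and 44.0 CPM in the sgITPR3 libraries, against 65.7, 51.6 and 55.8 CPM in the sgCtrl libraries (log2 fold change -0.46 with SE 0.0904, edgeR adjusted p = 0.00220). All sgITPR3 libraries lay below the sgCtrl libraries, and the adjusted p was 0.0527 with ALB as a covariate. Of the FADD exon bases, 54.9% are shared with AP000879.1 on the opposite strand, which held 1 count over the 6 libraries. CYCS, encoding cytochrome c, was at 161, 151 and 154 CPM in the sgITPR3 libraries, against 189, 165 and 198 CPM in the sgCtrl libraries (log2 fold change -0.25 with SE 0.0754, edgeR adjusted p = 0.0293). The CYCS call ended without any single library but sgCtrl replicate 2 (adjusted p = 0.0552 to 0.124) and with ALB as a covariate (0.420), and its counts are uncertain because processed pseudogenes share its sequence. XIAP, the inhibitor that binds caspases directly, was at 82.2, 86.1 and 69.8 CPM in sgITPR3 and 82.2, 83.3 and 84.7 CPM in sgCtrl (log2 fold change -0.07, 95% interval -0.24 to 0.10, edgeR adjusted p = 0.574), with sgITPR3 replicate 3 below the other 5 libraries. APAF1, the scaffold of the apoptosome, averaged 25.5 ± 1.57 CPM in sgITPR3 and 22.9 ± 1.94 CPM in sgCtrl (SD, n = 3 each; edgeR adjusted p = 0.265). HTRA2, a mitochondrial protease that counters XIAP, averaged 31.0 ± 1.52 CPM in sgITPR3 and 28.9 ± 2.11 CPM in sgCtrl (edgeR adjusted p = 0.442). It shares 16.1% of its exon bases with AUP1 and 20.8% with LOXL3, both on the opposite strand. DIABLO, the other mitochondrial antagonist of XIAP, held 11, 12 and 19 counts in sgITPR3 and 11, 7 and 5 counts in sgCtrl. GENCODE 29 places a further same-strand gene model over 29.6% of the DIABLO exon bases, with the rule for reads shared by gene models not given in the sources used here, and its low count cannot be read as a low level. The 7 genes of this group summed to 391 ± 11.0 in sgITPR3 and 439.9 ± 19.6 in sgCtrl (CPM, SD, n = 3 each), without overlap.

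In the gasdermin and necroptosis group 1 of 4 tested members fell and 3 did not pass, with a median of 0.36. MLKL, which forms the membrane pore of necroptosis, was at 12.4, 12.5 and 11.6 CPM in the sgITPR3 libraries, against 16.8, 18.3 and 19.4 CPM in the sgCtrl libraries (log2 fold change -0.58 with SE 0.107, edgeR adjusted p = 0.00136), and this call held in each of the 13 other settings. RIPK3, the kinase that activates MLKL, held 31, 23 and 17 counts in sgITPR3 and 5, 14 and 3 counts in sgCtrl and did not pass (log2 fold change 1.45, 95% interval 0.37 to 2.54, edgeR adjusted p = 0.0512). The groups did not overlap, but RIPK3 reached the low-count limit in 3 sgITPR3 libraries and in 1 sgCtrl library, so it passed the filter through the sgITPR3 libraries. It passed without sgCtrl replicate 2 (log2 fold change 2.26, adjusted p = 0.00742), without a low-count filter (adjusted p = 0.0327) and with limma-voom (0.0312), and with ALB as a covariate its log2 fold change was 0.62. GSDMD, the gasdermin cut by caspase 4, was at 20.0, 21.4 and 20.3 CPM in sgITPR3 and 15.8, 18.3 and 17.8 CPM in sgCtrl, again without overlap and without passing (log2 fold change 0.25, 95% interval 0.04 to 0.46, edgeR adjusted p = 0.0835). GSDMB was at 4.79, 5.83 and 7.84 CPM in sgITPR3 and 4.20, 5.47 and 3.58 CPM in sgCtrl (log2 fold change 0.47, 95% interval 0.01 to 0.93, edgeR adjusted p = 0.136), with overlapping groups. Without sgCtrl replicate 2 it passed, with a log2 fold change of 0.65 (adjusted p = 0.0411). GSDME, the gasdermin that links apoptotic caspases to lytic death, held 2, 3 and 1 counts in sgITPR3 and 1, 3 and 0 counts in sgCtrl. GSDMC held 0 counts in the 6 libraries, which allows at most 0.121 to 0.161 CPM per library at a floor of 3 counts (counting error only). The summed level of this group overlapped, at 40.0 ± 1.28 in sgITPR3 and 40.3 ± 2.97 in sgCtrl (CPM, SD, n = 3 each).

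**Figure D3:**
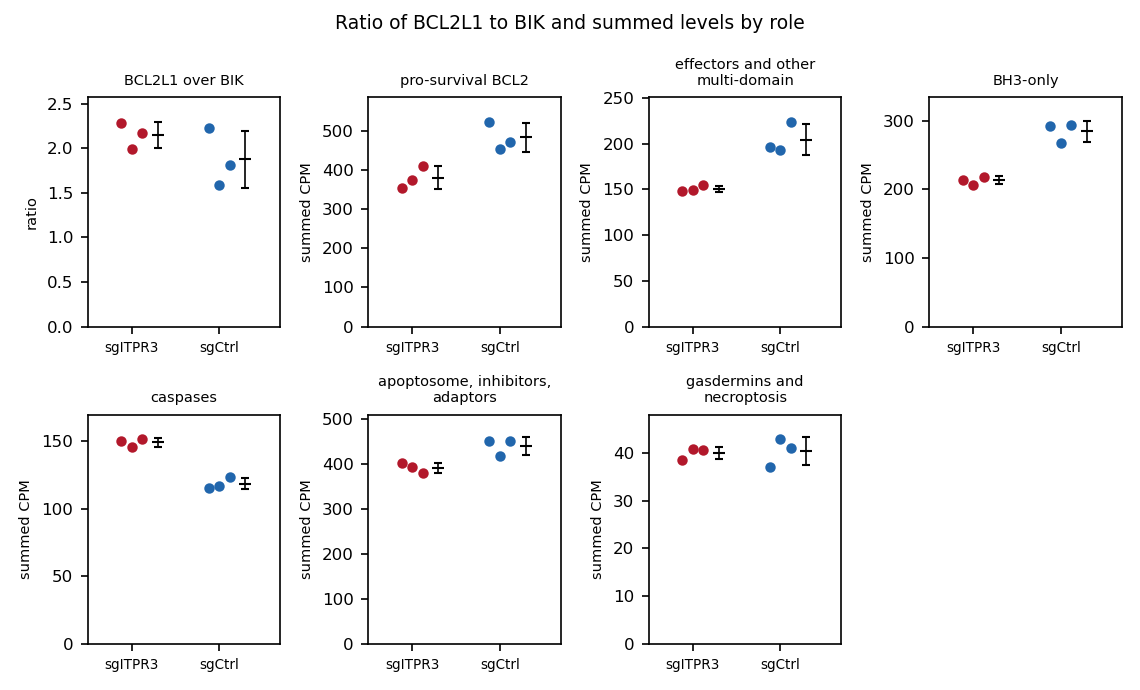
Ratio of BCL2L1 to BIK and summed CPM of the members of each role group in every library, with axes from 0, each dot a library and the black mark the mean with its SD (n = 3 per group). The pro-survival, multi-domain, BH3-only and apoptosome sums are lower in the sgITPR3 libraries, the caspase sum is higher, and the ratio and the gasdermin and necroptosis sum overlap.

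Other genes of the death pathways were read from 7 lists of 100 different genes, of which 85 were tested, 22 fell, 5 rose and 58 did not pass. The share called was 31.8%, against 23.5% of all tested genes, and the median log2 fold change was -0.089. Without sgITPR3 replicate 2, 12 fell and 3 rose, and with ALB as a covariate 9 fell and 2 rose. Over the whole table these settings called 2331 and 2007 genes in place of 3717. Of 12 tested death receptors and adaptors, 7 fell and 1 rose (66.7% called), with a median of -0.27. TNFRSF1A, the main receptor for tumour necrosis factor, averaged 53.7 ± 3.47 CPM in sgITPR3 and 78.8 ± 7.89 CPM in sgCtrl (SD, n = 3 each; log2 fold change -0.55 with SE 0.0838, edgeR adjusted p = 2.70e-04). TNFRSF10D, a TRAIL receptor without a working death domain, averaged 29.2 ± 0.122 CPM in sgITPR3 and 39.2 ± 1.01 CPM in sgCtrl (log2 fold change -0.43 with SE 0.0772, edgeR adjusted p = 0.00114). The signalling TRAIL receptors TNFRSF10A and TNFRSF10B and the receptor FAS fell as well, with log2 fold changes of -0.42, -0.30 and -0.39 (edgeR adjusted p = 0.00320, 0.0190 and 0.0260), and are named after their values were seen. The gene that rose was TNFSF10, the TRAIL ligand itself, with an average of 3.01 ± 0.160 CPM in sgITPR3 and 1.42 ± 0.491 CPM in sgCtrl (log2 fold change 1.08 with SE 0.286, edgeR adjusted p = 0.0136). The TNFSF10 call ended without sgCtrl replicate 1 (log2 fold change 0.82, adjusted p = 0.0528) and with ALB as a covariate (0.117). The calls of FAS and TNFRSF10A also ended with that covariate (0.244 for FAS and 0.102 for TNFRSF10A, its log2 fold change then being -0.24). Leaving out sgITPR3 replicate 2, sgITPR3 replicate 3 or sgCtrl replicate 1 ended those of FAS (0.0540, 0.0896 and 0.0900) and TNFRSF10B (0.0626, 0.0780 and 0.0516), and leaving out sgCtrl replicate 3 that of FAS (0.0669).

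Of the inhibitor of apoptosis family and its partners, 1 of 5 tested fell and 1 rose (40% called, against 23.5% of all tested genes, median 0.12). BIRC3, a ubiquitin ligase that restrains caspase 8 activation, was at 9.15, 10.9 and 13.5 CPM in the sgITPR3 libraries, against 20.9, 18.0 and 22.4 CPM in the sgCtrl libraries (log2 fold change -0.87 with SE 0.139, edgeR adjusted p = 4.10e-04). XAF1, an interferon-inducible antagonist of XIAP, was at 8.25, 8.05 and 5.62 CPM in the sgITPR3 libraries, against 3.50, 4.08 and 3.90 CPM in the sgCtrl libraries (log2 fold change 0.94 with SE 0.188, edgeR adjusted p = 0.00240). Neither gene overlapped between the groups, and with ALB as a covariate the adjusted p of XAF1 was 0.0502. Genes upstream of pyroptosis were mostly too low to test, 8 of 14, with NLRC4, AIM2 and CARD18 at 0 counts in the 6 libraries. Of the 6 that were tested, 2 fell (33.3% called, median -0.14). NINJ1, which ruptures the plasma membrane at the end of lytic death, averaged 28.2 ± 2.01 CPM in sgITPR3 and 41.0 ± 3.63 CPM in sgCtrl (log2 fold change -0.54 with SE 0.0913, edgeR adjusted p = 6.60e-04). DPP9, a protease that keeps NLRP1 and CARD8 inactive, averaged 29.3 ± 0.830 CPM in sgITPR3 and 40.0 ± 1.38 CPM in sgCtrl (log2 fold change -0.45 with SE 0.0786, edgeR adjusted p = 8.67e-04).

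Of 11 tested genes upstream of necroptosis, 3 fell (median -0.14), and the share called, 27.3%, was near the 23.5% of all tested genes. PGAM5, a mitochondrial phosphatase, averaged 26.6 ± 1.07 CPM in sgITPR3 and 34.6 ± 3.54 CPM in sgCtrl (log2 fold change -0.38 with SE 0.0928, edgeR adjusted p = 0.00876). TICAM1, the adaptor of the receptor for double-stranded RNA, averaged 9.97 ± 1.21 CPM in sgITPR3 and 13.6 ± 1.72 CPM in sgCtrl (log2 fold change -0.44 with SE 0.136, edgeR adjusted p = 0.0288). Of 10 tested genes of execution and DNA fragmentation, 2 fell (median -0.058), ENDOG with a log2 fold change of -0.30 (edgeR adjusted p = 0.0324) and PARP1 with -0.26 (edgeR adjusted p = 0.0383). The share called in this list, 20%, was near that of all genes. With ALB as a covariate the calls of PGAM5 (log2 fold change -0.23, adjusted p = 0.216), TICAM1 (-0.26, 0.370), ENDOG (-0.28, 0.170) and PARP1 (-0.078, 0.642) ended. TICAM1 also failed without sgITPR3 replicate 2, sgCtrl replicate 1 or sgCtrl replicate 3 (0.0708 to 0.137), ENDOG without any of 4 libraries (the sgITPR3 libraries and sgCtrl replicate 1, 0.0763 to 0.134) and PARP1 without any library but sgCtrl replicate 2 (0.0703 to 0.140).

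Of 19 tested partners of the BCL2 family at mitochondria and the endoplasmic reticulum, 4 fell (median -0.10). The share called, 21.1%, was near the 23.5% of all tested genes. VDAC2, the outer membrane channel through which BAK1 is recruited, averaged 62.7 ± 1.11 CPM in sgITPR3 and 83.4 ± 9.18 CPM in sgCtrl (log2 fold change -0.41 with SE 0.0819, edgeR adjusted p = 0.00233), and with ALB as a covariate its log2 fold change was -0.25 (adjusted p = 0.0862). GHITM, an inner membrane protein that helps to retain cytochrome c, averaged 142 ± 4.50 CPM in sgITPR3 and 184 ± 17.7 CPM in sgCtrl (log2 fold change -0.37 with SE 0.0755, edgeR adjusted p = 0.00285). Of 23 tested stress and DNA damage genes upstream of the BH3-only genes, 3 rose and 3 fell (median 0.021), and the share called, 26.1%, was near the 23.5% of all tested genes. PHLDA3, a repressor of AKT, was at 20.0, 18.6 and 19.2 CPM in the sgITPR3 libraries, against 38.8, 32.0 and 33.9 CPM in the sgCtrl libraries (log2 fold change -0.86 with SE 0.0948, edgeR adjusted p = 1.74e-05). AEN, an apoptosis-enhancing nuclease, averaged 50.8 ± 2.43 CPM in sgITPR3 and 66.2 ± 1.76 CPM in sgCtrl (log2 fold change -0.38 with SE 0.0707, edgeR adjusted p = 0.00134). DDIT3, encoding CHOP, which induces BCL2L11 under endoplasmic reticulum stress, was higher, at 61.1, 60.3 and 64.3 CPM in the sgITPR3 libraries, against 40.7, 49.8 and 49.5 CPM in the sgCtrl libraries (log2 fold change 0.41 with SE 0.0852, edgeR adjusted p = 0.00325), and is named after its value was seen. The same holds for the remaining genes of this list that passed. CHAC1 and PERP rose, with log2 fold changes of 0.67 and 0.30 (edgeR adjusted p = 0.0362 and 0.00708). TRIB3 fell, with a log2 fold change of -0.35 (edgeR adjusted p = 0.0209). CHAC1, PERP and TRIB3 were not followed singly in the other settings. With ALB as a covariate 2 of the other death pathway genes were higher in place of 5. ATF4 did not pass (log2 fold change -0.05, edgeR adjusted p = 0.671). A stress response was not tested.

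**Figure D4:**
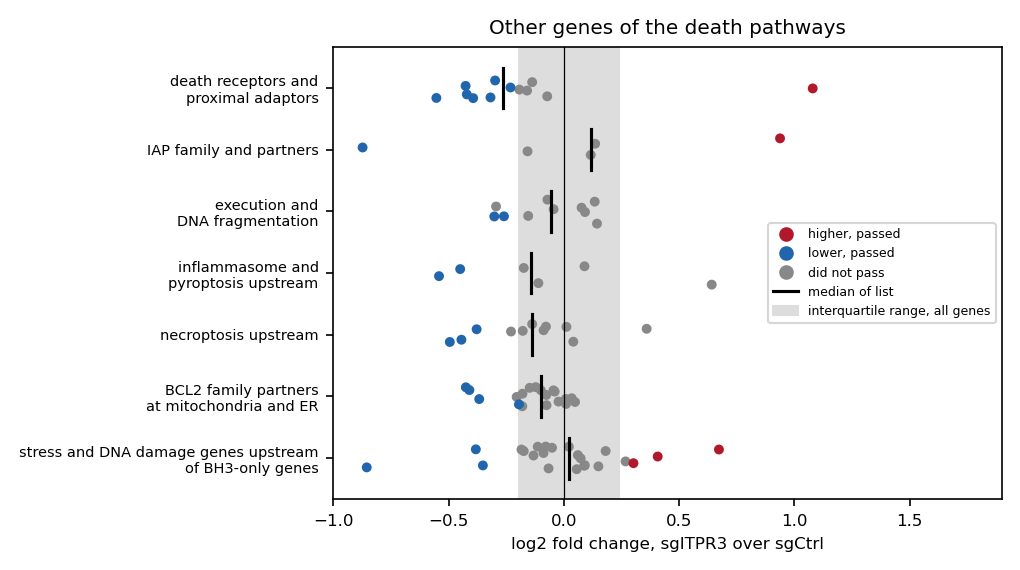
Log2 fold change of sgITPR3 over sgCtrl for each tested gene of the 7 lists of other death pathway genes, with the list median as a black bar and the interquartile range of all 15804 tested genes shaded. Death receptors and adaptors lie mostly to the left with a median of -0.27, TNFSF10 lies far right at 1.08, and the medians of the other lists lie between -0.14 and 0.12.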

How the data were processed

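Tags from the 3' ends of polyadenylated human RNA were counted in 3 sgITPR3 and 3 sgCtrl libraries, grouped by their labels. The authors deposited whole-number counts per Ensembl gene. Per the submitters' processing notes, STAR 2.6.0a, featureCounts 1.6.3, DESeq2 and GRCh38 were used. Not given in the sources used here were the release of the annotation, whether strand was used, and what was done with mouse and multiply mapped reads. A gene that overlaps another is therefore uncertain. Symbols and positions came from GENCODE 29.

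From the counts, genes were filtered with filterByExpr (minimum count 10), scaled by TMM and tested with edgeR 4.0.16 (quasi-likelihood, R 4.3.3), sgITPR3 against sgCtrl, with Benjamini-Hochberg adjustment over all genes tested and a threshold of 0.05. CPM used the TMM-scaled totals. The standard error is the absolute log2 fold change over the square root of F, and the 95% interval uses edgeR's degrees of freedom. The fit was tested on simulated data. Per-library values are given for members that passed and for the 2 most abundant others tested in each role, with the overlapping or low members added after their values were seen; from each other list the 2 called genes with the smallest p are named. Other settings tried were a replicate block, RLE scaling, a stricter low-count limit (1 CPM in 3 libraries) or none, the level of ALB as a covariate, leaving out each library, DESeq2 1.42.0 and limma-voom (limma 3.58.1). The members, the gene lists and the ALB covariate were chosen with earlier results of these data known. Promoter stretches and motifs were chosen after the values were seen.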

Additional observations from a re-analysis of the deposited data

How the results depend on the processing

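Of the 16 members that passed, 9 kept their call in each of the 13 alternatives (BCL2L1, BCL2L12, BCL2L15, BID, BIK, BBC3, BCL2L11, CASP4 and MLKL), and no call changed direction in any of them. With ALB as a covariate 2007 genes were called over the whole table in place of 3717, 1 member was higher and 9 were lower, and of the other death pathway genes 2 were higher and 9 lower. Leaving out each library in turn gave 2331 to 4261 genes called over the whole table, 2 to 4 members higher and 9 to 14 lower, and 3 to 6 other pathway genes higher and 12 to 21 lower; where this left 2 libraries in a group, the spread was pooled over both groups. In the same refits the log2 fold changes of 7 members that did not pass changed sign: BCL2 from -0.065 to 0.37, BMF from -0.070 to 0.24, BOK from -0.067 to 0.14, CASP6 from -0.021 to 0.20, HRK from -0.54 to 0.21, PMAIP1 from -0.11 to 0.048 and XIAP from -0.13 to 0.012. With ALB as a covariate PMAIP1 was at 0.15 and CASP6 at -0.016. The cause of these shifts was not tested. With the replicate number as a block 3877 genes passed over the whole table, 3 members were higher (CASP2 being added, edgeR adjusted p = 0.0393) and 14 lower. The deviations of same-numbered libraries correlated at -0.026, 0.12 and 0.18 over 10632 genes, and sgITPR3 replicate 1 correlated best with sgCtrl replicate 2, so the numbers were not taken as pairs. The role sums and the ratio of BCL2L1 to BIK moved by less than 1 SD with raw library totals.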
